A study of Mus musculus with 9 samples.

Results

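The contrast described here is between D2A1-d cells that carry the first of 2 short hairpin RNAs against Med4, labelled shMed4 #1, and cells that carry a non-targeting control hairpin, labelled NTC. It takes 6 of the 9 libraries of the series, 3 from each group, chosen by their labels alone, and it covers every gene with enough reads to test, 14335 of 55335 gene identifiers. D2A1-d is a murine breast carcinoma line grown in culture, and every group received a hairpin by transduction and is labelled untreated. The labels give the genotype of NTC as WT and that of the hairpin cells as Med4 Knockdown. They number the libraries of a group as biological replicates without saying whether transductions were separate. The p-values here therefore measure the spread between these libraries, which may be technical. The remaining 3 libraries carry the second hairpin, shMed4 #4. They are part of the model fitted to all 9 libraries, so they bear on its filter, scaling and spread, and their own values are given where the hairpins are set side by side.

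Med4 encodes a subunit of Mediator, a large complex that carries signals from DNA-bound transcription factors to RNA polymerase II. Mediator is described in modules: a head and a middle that contact the polymerase, a tail that is bound by many activators, and a detachable kinase module. MED4 belongs to the middle module. A hairpin RNA of this kind is processed into a short interfering RNA that lowers the matching transcript without removing the gene.

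The 6 libraries held 7572114 to 8582235 reads assigned to genes. Across genes, log expression correlated at 0.992 within NTC (the lowest of 3 pairs), at 0.991 within shMed4 #1 and at 0.968 to 0.970 between the groups. A principal component analysis of the 6 libraries put 70.7% of the variance on its first axis, with the 3 NTC libraries at one end and the 3 shMed4 #1 libraries at the other. The second axis held 8.64% and set shMed4 #1 replicate 1, at 17.2, apart from the other libraries of its group, at -10.3 and -6.55, and NTC replicate 3, at -12.9, from the others of NTC, at 6.91 and 5.66. No pair within a group agreed within sampling noise. Without shMed4 #1 replicate 1 2980 genes were called higher and 2620 lower, and without NTC replicate 3 2864 and 2524, against 3132 and 2834 with all libraries. Mitochondrially encoded genes took 4.43 to 4.58% of gene reads in NTC and 5.51 to 6.12% with shMed4 #1, where replicate 1 was the highest.

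Med4 (ENSMUSG00000022109.6, chromosome 14, 73510025 to 73518849 on GRCm38, protein-coding) was counted 236, 216 and 204 times in the NTC libraries and 40, 35 and 38 times in the shMed4 #1 libraries. Levels are given below in CPM, a read count scaled to library size that is not corrected for gene length. Med4 stood at 27.4 ± 2.19 CPM in NTC and 4.53 ± 0.386 with shMed4 #1 (SD, n = 3 each), and the groups did not overlap. The change was the third largest fall in the ranking of genes of at least 5 CPM described below (log2 fold change -2.59, SE 0.14, edgeR adjusted p = 3.92e-18). The count is of the whole gene and does not say how much protein remained.

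Among the other Mediator subunits most transcripts were not called changed, as was so for 58.4% of all genes tested. Called here means an edgeR adjusted p under 0.05, which 21.8% of all genes tested passed upward and 19.8% downward. The counts of list members here and below are to be read beside these shares. In the head module 1 of 11 members rose and 1 fell, in the middle module with the MED14 backbone 2 of 10 rose and Med4 alone fell, and in the tail 0 of 5 rose and 2 fell. In the kinase module 3 of 7 rose and 4 fell. Of the head, Med30 rose from 20.7 to 36.4 CPM (log2 fold change 0.81, SE 0.10, edgeR adjusted p = 2.62e-08), and Med22 fell by 0.43 on the log2 scale. In the middle, Med14, the scaffold that joins the modules, stood at 39.7, 48.2 and 37.6 CPM in the NTC libraries and at 71.6, 68 and 77.2 CPM with shMed4 #1. Every shMed4 #1 value lay above every NTC value (log2 fold change 0.79, SE 0.08, edgeR adjusted p = 6.51e-11). Med30 and Med14 both lie among genes that were higher, with a median log2 fold change of 0.29 and 0.50 over the 25 tested genes on each side, and the part of the neighbourhood in these rises was not tested. In the kinase module the kinase Cdk8 rose by 0.23, its partner Ccnc by 0.19 and Med13l by 0.28, while Cdk19, Med12, Med13 and the weakly expressed Med12l had log2 fold changes of -0.20, -0.20, -0.21 and -1.14, and the groups of Med12l overlapped. The calls of Med21, Med12, Med13 and Med12l were lost under at least 1 alternative setting. Of the tail, Med16 (-0.53) and Med23 (-0.25) fell. Of 35 genes of RNA polymerase II and its general factors, 7 rose and 4 fell, and without shMed4 #1 replicate 3 4 rose. The largest subunit gene, Polr2a, went from 286 to 337 CPM and Polr2c from 169 to 123 CPM, the latter on a stretch of chromosome 8 where the neighbours had a median of -0.58.

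The response to shMed4 #1 was broad, shallow for most genes and steep for a small upward group. Of 14335 genes tested, 3132 were higher and 2834 lower, together 41.6%. Under upper-quartile scaling the balance turned, with 2767 higher and 3240 lower. Of the 5966 genes called in the main fit, 4145 differed by less than 1.5-fold. The median log2 fold change was 0.40 among the higher and -0.39 among the lower genes. Large changes leaned upward. At least 2-fold higher were 562 genes, 3.92% of those tested, and at least 2-fold lower were 356, or 2.48%. At 4-fold the counts were 217 up and 24 down, and at 8-fold 34 up and 3 down. In the fit of the 6 libraries alone, 505 genes were at least 2-fold higher and 350 at least 2-fold lower. The groups did not overlap for 5596 of the 5966 genes, which the call itself favours, so this count adds no separate support. The same holds where groups of a named gene are called separated below, since most genes were named by rank or smallest p. Of the genes that rose, 12 had at most 3 reads over the NTC libraries together, and no gene that fell was as low with shMed4 #1, so the steep end holds some genes that were close to undetected in NTC.

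Protein-coding and noncoding genes differed in which direction was more often called. Of 11616 protein-coding genes, 24.8% rose and 19.9% fell, with 485 at least 2-fold up and 161 at least 2-fold down. Of 1678 long noncoding RNA genes, 11% rose and 20.3% fell, with 48 and 108 past 2-fold. Of 600 pseudogenes, 26 rose and 84 fell. By level, 12.5% rose and 15.5% fell between 1 and 5 CPM, and 30.9% rose and 25.1% fell at 100 CPM or more. Of 158 genes under 1 CPM, 36.1% rose and 8.86% fell. Genes this low pass the filter mainly through 1 group where they are higher, which in part sets both shares.

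**Figure D1:**
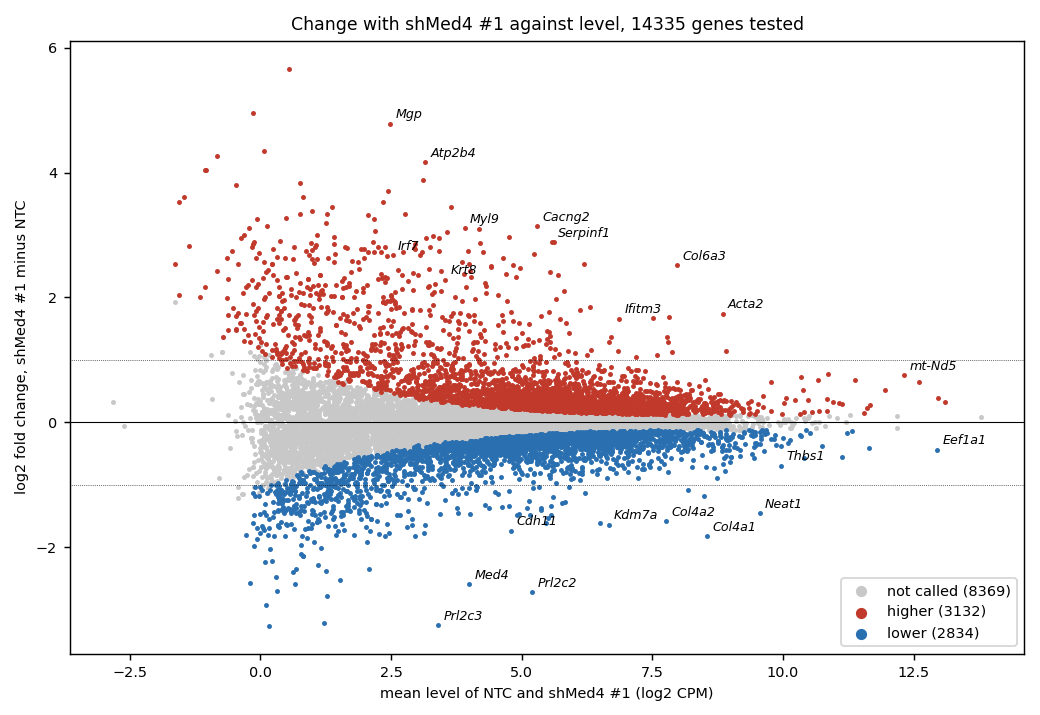
Log2 fold change of each gene tested (shMed4 #1 minus NTC, vertical axis) against its mean level over both groups (log2 CPM, horizontal axis). Red points are the 3132 genes called higher, blue the 2834 called lower and grey those not called; dotted lines mark a 2-fold change, and the points beyond it are more numerous above (562) than below (356).

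Among called genes of at least 5 CPM with groups that do not overlap and no clone name, the largest rise was in Mgp. Atp2b4, Adamts5, Etl4, Mum1l1 and Flt1 followed. Separation of the groups was thus a condition for this ranking and for the rankings below. Mgp, whose product inhibits calcification of the matrix, held 0.622, 0.258 and 0.245 CPM in the NTC libraries and 9.94, 11.7 and 10.6 CPM with shMed4 #1. No NTC library came near a shMed4 #1 library (log2 fold change 4.79, SE 0.30, edgeR adjusted p = 3.62e-16). Atp2b4, a calcium pump of the plasma membrane, went from 0.622, 1.29 and 0.859 CPM to 16.4, 16.9 and 17 CPM (log2 fold change 4.17, SE 0.21, edgeR adjusted p = 9.37e-19). Its replicates were close within each group. Adamts5, a protease that cuts the proteoglycan aggrecan, held 1.12, 1.16 and 0.982 CPM in NTC and 14.5, 17.4 and 16.8 CPM with shMed4 #1, and rose by 3.88 on the log2 scale. Flt1, a receptor of vascular endothelial growth factors, went from 1.87, 1.94 and 2.45 CPM to 25, 22.5 and 21.5 CPM (3.45). The remaining members of the 15 largest rises had log2 fold changes between 2.98 and 3.71. They include the RNA-binding protein Rbms3, Cacng2, an auxiliary protein of AMPA receptors, the myosin light chain Myl9, the arsenic methyltransferase As3mt, the glycosyltransferase B3gnt3, the arginine synthesis enzyme Ass1 and the tetraspanin Tspan18. Etl4, Mum1l1, Neurl3 and Tesmin are the others. Cacng2 is the 1 of these genes whose neighbours were shifted by 0.3 or more (median 0.32). Of these rises, those of Mgp, Atp2b4, Etl4, Mum1l1, Neurl3, B3gnt3 and As3mt started from an NTC mean under 1 CPM. Genes so low in NTC were tested through higher levels in hairpin libraries, which favours a rise. The same holds for Ptn, Meis2 and Ovol1 below.

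The rises with the smallest p were in genes with more reads. Fads3, a gene of the fatty acid desaturase family, held 11.7, 11.8 and 11.9 CPM in the NTC libraries and 82.6, 88.3 and 89.7 CPM with shMed4 #1 (log2 fold change 2.88, SE 0.08, edgeR adjusted p = 4.41e-26). Col6a3, the long chain of collagen VI, held 74.6, 81.2 and 66.6 CPM in NTC and 458, 393 and 425 CPM with shMed4 #1 (log2 fold change 2.52, SE 0.08, edgeR adjusted p = 1.35e-25). In both genes the spread within a group was small beside the difference, which a choice by smallest p favours. Serpinf1, which encodes the secreted anti-angiogenic factor PEDF, went from 9.83, 12.4 and 12.2 CPM to 83.1, 87.5 and 83.7 CPM, a 7.39-fold rise. Dynlt3, a dynein light chain, rose from 21.3 to 124 CPM amid X-linked neighbours whose median log2 fold change was 0.50. The smooth muscle actins Actg2 and Acta2 are described with the contractile genes.

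Falls were shallower than rises. The largest were in Prl2c3 and Prl2c2, which encode proliferins, secreted hormones of the prolactin family. Prl2c2 held 67, 56.2 and 67.5 CPM in the NTC libraries and 11.3, 6.90 and 10.6 CPM with shMed4 #1, and Prl2c3 held 21, 17.3 and 19.3 CPM and 2.86, 0.968 and 2.20 CPM. Both groups were separated in both genes (log2 fold changes -2.72 and -3.25). The genes are close paralogs, and reads with several alignments were not counted, so the split between them is uncertain. Tmod2, an actin filament capping protein, fell from 7.02 to 1.37 CPM (log2 fold change -2.35, SE 0.28, edgeR adjusted p = 8.72e-09). Next in size came Disp2, the metalloprotease Mmp3, the kinase Stk39, the homeobox factor Lhx2, Nhs, Mlf1, the RNA-binding protein Celf2 and the histone demethylase Kdm7a. Their log2 fold changes lay between -1.82 and -1.64. Cdh11, a mesenchymal cadherin (-1.74), and Tsnaxip1 (-1.80) lie on the lower stretch of chromosome 8, with neighbour medians of -0.55 and -0.65. Tmsb4x, the actin-sequestering thymosin beta 4, held 140.3, 126 and 142 CPM in NTC and 44.9, 47.3 and 40.5 CPM with shMed4 #1 (log2 fold change -1.62, SE 0.07, edgeR adjusted p = 1.46e-21).

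Ranked by the difference in mean CPM rather than by fold, other genes led. The largest gain outside the mitochondrial genome was in Serpinh1, the collagen chaperone HSP47, which held 2039.8, 2062 and 2089 CPM in the NTC libraries and 3186, 3358 and 3309.9 CPM with shMed4 #1 (0.67). The largest losses were in the elongation factor Eef1a1, with 8852, 8899.6 and 9621 CPM in NTC and 6477, 7010.4 and 6689 CPM with shMed4 #1 (-0.44), the ferritin heavy chain Fth1 (-0.41) and the elongation factor Eef2 (-0.56). Neat1, the long noncoding RNA that scaffolds nuclear paraspeckles, held 1157, 1115 and 1033 CPM and 435, 361 and 407 CPM. Its groups were far apart (log2 fold change -1.46, SE 0.06, edgeR adjusted p = 4.28e-21). Igfbp4, a secreted binder of insulin-like growth factors (-0.57), and the matricellular protein Thbs1 (-0.69) complete the 6 largest losses.

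**Figure D2:**
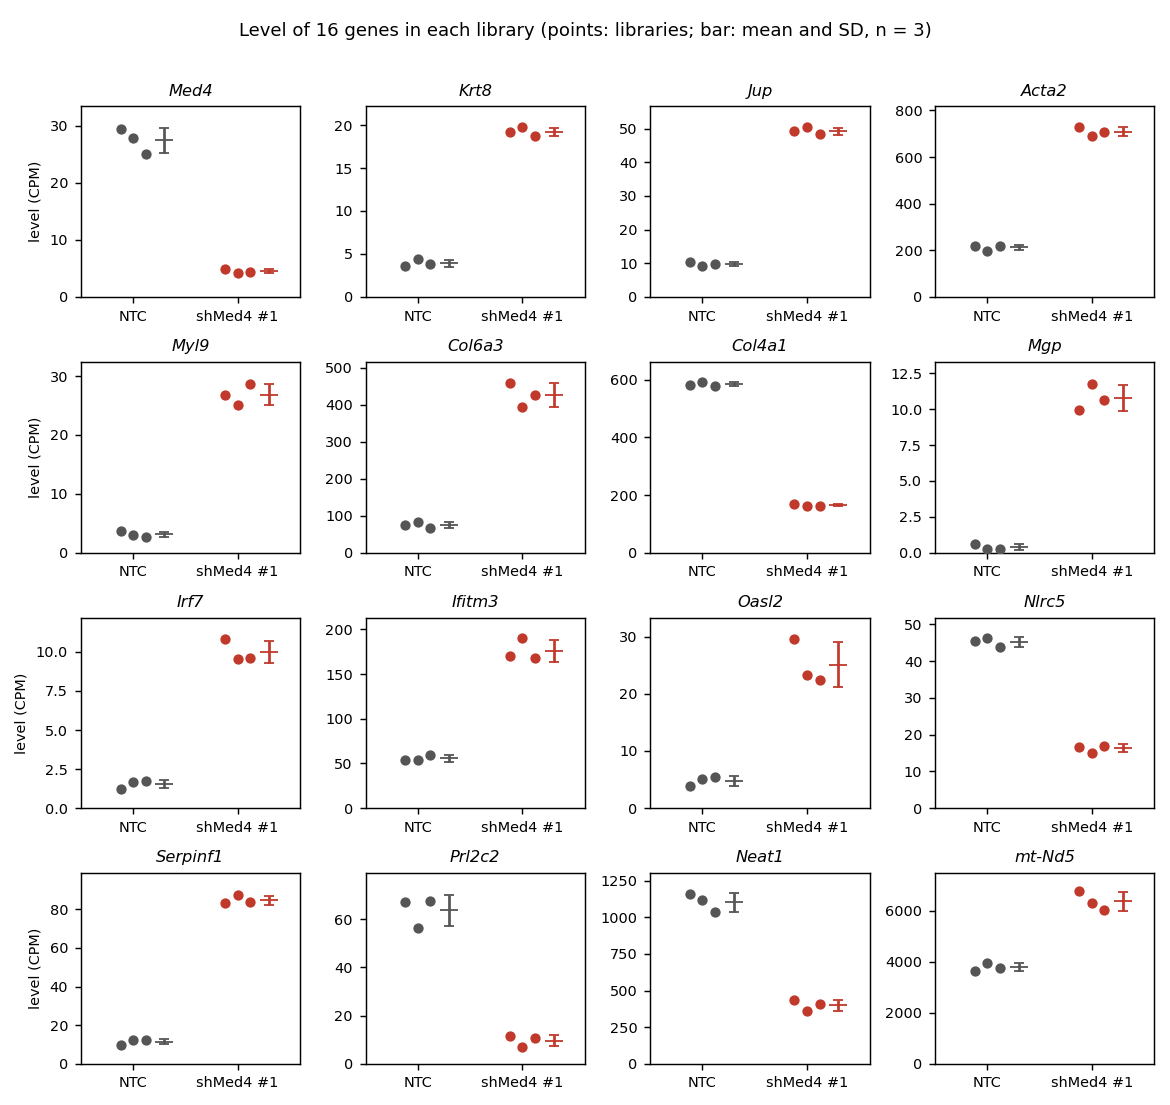
Level in CPM (vertical axes, from 0) of 16 genes in each NTC and shMed4 #1 library, with 3 libraries per group; points are libraries and the bar at their right is the mean with its SD. In none of the 16 panels do the groups overlap, which follows in part from drawing genes that were called. Med4 itself falls from 27.4 to 4.53 CPM.

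Transcripts of simple epithelia and of contractile cells were higher with shMed4 #1. Krt8 and Krt18 encode the keratin pair that forms the intermediate filaments of luminal and other simple epithelia. Krt18 held 19.9, 20.1 and 21.2 CPM in the NTC libraries and 76.7, 90.9 and 74.7 CPM with shMed4 #1, and Krt8 held 3.61, 4.39 and 3.80 CPM and 19.1, 19.7 and 18.7 CPM. Both groups were separated in both genes (log2 fold changes 1.98 and 2.28). In RNA from bulk cultures, a change in the share of cells that express a gene cannot be told apart from a change per cell. Of 10 luminal markers in the files 5 were tested and 4 rose, the others being the EGF receptor ligand Areg (0.85) and the transcription factor Gata3 at a low level (0.99, among lower neighbours with a median of -0.31, its call lost under at least 1 alternative setting). Foxa1 stood at 2.02 to 2.99 CPM and did not pass (edgeR adjusted p = 0.148). Epcam, Elf5 and Prlr had no read in the 6 libraries, Cdh1, the epithelial cadherin, had 0 reads, and Krt19 had 0 reads over NTC and 4 over shMed4 #1. The summed level of the luminal markers was 34.1 to 38.9 CPM in NTC and 112 to 135 CPM with shMed4 #1, most of it Krt18 and Krt8.

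Genes of epithelial junctions were tested in 15 of 32 cases, and 7 rose, 5 of them at least 2-fold, while 2 fell. Jup, the plakoglobin of desmosomes and adherens junctions, held 10.4, 9.04 and 9.82 CPM in NTC and 49.2, 50.3 and 48.3 CPM with shMed4 #1, and the desmosomal plakophilin Pkp1 held 10.6, 7.49 and 10.6 CPM and 55.4, 48.6 and 55.3 CPM. Both rose beyond any overlap (2.33 and 2.47 on the log2 scale). F11r, a tight junction adhesion molecule, rose by 0.92, and the tight junction protein Cgn by 1.76 from about 1 CPM. Ovol1, a repressor of mesenchymal genes, rose by 2.53, but it had only 3, 4 and 1 reads in the NTC libraries, and an antisense gene covers 22% of its exons. Tjp1, the most abundant member in CPM, was not called (150.3 to 144 CPM, edgeR adjusted p = 0.41).

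Of 17 tested mesenchymal genes, 5 rose and 3 fell, near the shares of all genes. The rises were led by the neural cell adhesion molecule Ncam1, with 35.4, 34.5 and 33.4 CPM in NTC and 127, 129 and 118 CPM with shMed4 #1, and by the homeobox factor Prrx1 (8.52 to 48.6 CPM). Tnc, tenascin C, rose by 1.53. The intermediate filament Vim fell from 1949.6 to 1501 CPM (-0.38), in a neighbourhood with a median of -0.31, and Cdh11 fell as given above.

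Contractile genes and targets of serum response factor were more often higher. Of 24 tested, 14 rose, 6 at least 2-fold, and 2 fell, against 21.8% and 19.8% of all genes. Acta2, the alpha actin of smooth muscle and myoepithelium, held 219.5, 198 and 219 CPM in the NTC libraries and 730.0, 689.9 and 705 CPM with shMed4 #1 (log2 fold change 1.74, SE 0.06, edgeR adjusted p = 2.12e-24). Actg2, the gamma actin of smooth muscle, held 107, 105 and 107 CPM and 361, 321 and 344 CPM (1.69), and Myl9, a regulatory myosin light chain, 3.61, 2.97 and 2.70 CPM and 26.7, 25.2 and 28.7 CPM (3.11). In each of these genes all shMed4 #1 libraries lay above all NTC libraries. Cnn3, an actin-binding calponin, rose by 0.52 and Cnn1, from under 1 CPM, by 2.32. Ccn1, a matricellular target of the same pathway, fell by 0.46 on the log2 scale, and the filamin Flna went from 2529 to 2241 CPM (-0.17), a call lost under at least 1 alternative setting.

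Markers of other cell types were checked in the same libraries. Of 12 leukocyte markers 6 were tested, and 4 fell and 1 rose. Cd14 went from 120.0 to 76.8 CPM, Lyz2 from 3.75 to 1.36 CPM with overlapping groups and Cd79a from 1.68 to 0.767 CPM, all lower. S100a8 fell as well (log2 fold change -2.78), whereas Cd74 rose from 0.588 to 2.81 CPM and Csf1r was not called (10.4 to 10.2 CPM). The summed level of the list was 129 to 156 CPM in NTC and 88.3 to 98.4 CPM with shMed4 #1, mostly Cd14. The pan-leukocyte gene Ptprc had 6 reads over NTC and 4 over shMed4 #1, Tyrobp had 4 and 2, and Cd3e had none. Of 8 endothelial markers only Flt1 and Cdh5 (0.832 to 2.47 CPM, neighbour median -0.56) were tested, and both rose. The summed level of this list was 3.35 to 4.16 CPM in NTC and 25.9 to 27.6 CPM with shMed4 #1, mostly Flt1, while Pecam1 had 12 and 13 reads, Kdr 1 and 0, and Cldn5 and Emcn had none. Of 9 fibroblast markers 4 were tested, with Col1a1 and Col1a2 (neighbour median 0.31) higher, Pdgfra and Pdgfrb lower, and a summed level of 263 to 296 CPM in NTC and 234 to 252 CPM with shMed4 #1. Dcn had 1 and 3 reads, Lum 1 and 0, and Dpt and Fap none. Ptprc, Tyrobp, Cd3e, Pecam1, Kdr, Dcn and Lum, singled out here after their values were seen, were thus at or near 0 in both groups, while other members of the same lists were expressed and changed. Of 8 mammary basal markers 2, Acta2 and Cnn1, were tested, and both rose. Their list had a summed level of 200.2 to 221 CPM in NTC and 693 to 733 CPM with shMed4 #1 that was mostly Acta2. Cdh5, Cd74 and Cnn1 were under 1 CPM in NTC and were tested through higher levels in hairpin libraries, which favours a rise. Cd79a, under 1 CPM with shMed4 #1, was tested through other libraries. The basal keratin genes were close to 0, with Krt5 at 1 and 0 reads and Krt14 at 0 and 9, and Trp63 had 22 reads in each group. The part of other cells in the results was not tested beyond these values.

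Transcripts of matrix proteins moved in both directions. Basement membranes are sheets of type IV collagen, laminin and perlecan under epithelia, and fibrillar and beaded-filament collagens fill the space between cells. Col4a1 held 583, 592 and 579 CPM in the NTC libraries and 169, 163 and 163 CPM with shMed4 #1, and its partner chain Col4a2 held 334, 328 and 320.0 CPM and 111, 106 and 109.8 CPM. The pair fell with little spread (log2 fold changes -1.82 and -1.58), and their neighbours on chromosome 8 were not shifted (0.00 and -0.01). Other members of the basement membrane list moved the other way. Of 17 tested, 8 rose and 3 fell, with the laminin chain Lamc1 up from 197 to 307 CPM, Fbln1 up by 0.64 and Sparc, a collagen-binding matricellular protein, up from 1047 to 1347 CPM.

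Of 26 interstitial collagen genes and their chaperones, 15 rose, 7 at least 2-fold, and 5 fell. Beside Col6a3, the fibril-associated Col12a1 held 86.2, 89.2 and 85.9 CPM in NTC and 298, 247 and 283 CPM with shMed4 #1. Col1a1, a chain of type I collagen, went from 15.5 to 46.4 CPM and Col6a1 from 97.9 to 173 CPM, both with separated groups. Of 32 matricellular proteins and proteoglycans, 18 rose and 7 fell. Emilin2, an elastic fibre glycoprotein, held 5.10, 6.85 and 6.38 CPM in NTC and 47.3, 47.7 and 49.3 CPM with shMed4 #1 (log2 fold change 2.98, SE 0.11, edgeR adjusted p = 2.65e-23). Vcan, the large proteoglycan versican, held 13.2, 13.8 and 13.1 CPM and 41.1, 32.2 and 36.4 CPM (1.45). Thbs1 went from 1221, 1249 and 1205 CPM to 765, 749.6 and 757 CPM and the TGF-beta binding protein Ltbp2 from 565 to 354 CPM, both lower. Fn1, fibronectin, went from 2837 to 3164 CPM (0.16), and this call too was lost under at least 1 alternative setting.

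Of 37 matrix proteases and their inhibitors, 21 rose and 9 fell. The inhibitors Timp3 and Timp1 rose, Timp3 from 129 to 315 CPM and Timp1 from 49.1 to 110.2 CPM. Timp1 lies on the higher stretch of the X chromosome (neighbour median 0.45), and an antisense gene covers 21.3% of the exons of Timp3. Plat, tissue plasminogen activator, held 15.7, 18.7 and 18.7 CPM in NTC and 54.7, 55.9 and 48.4 CPM with shMed4 #1 (1.58). The stromelysin Mmp3 moved the other way, from 13.1, 9.95 and 13.4 CPM to 2.86, 3.02 and 4.40 CPM (-1.81).

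**Figure D3:**
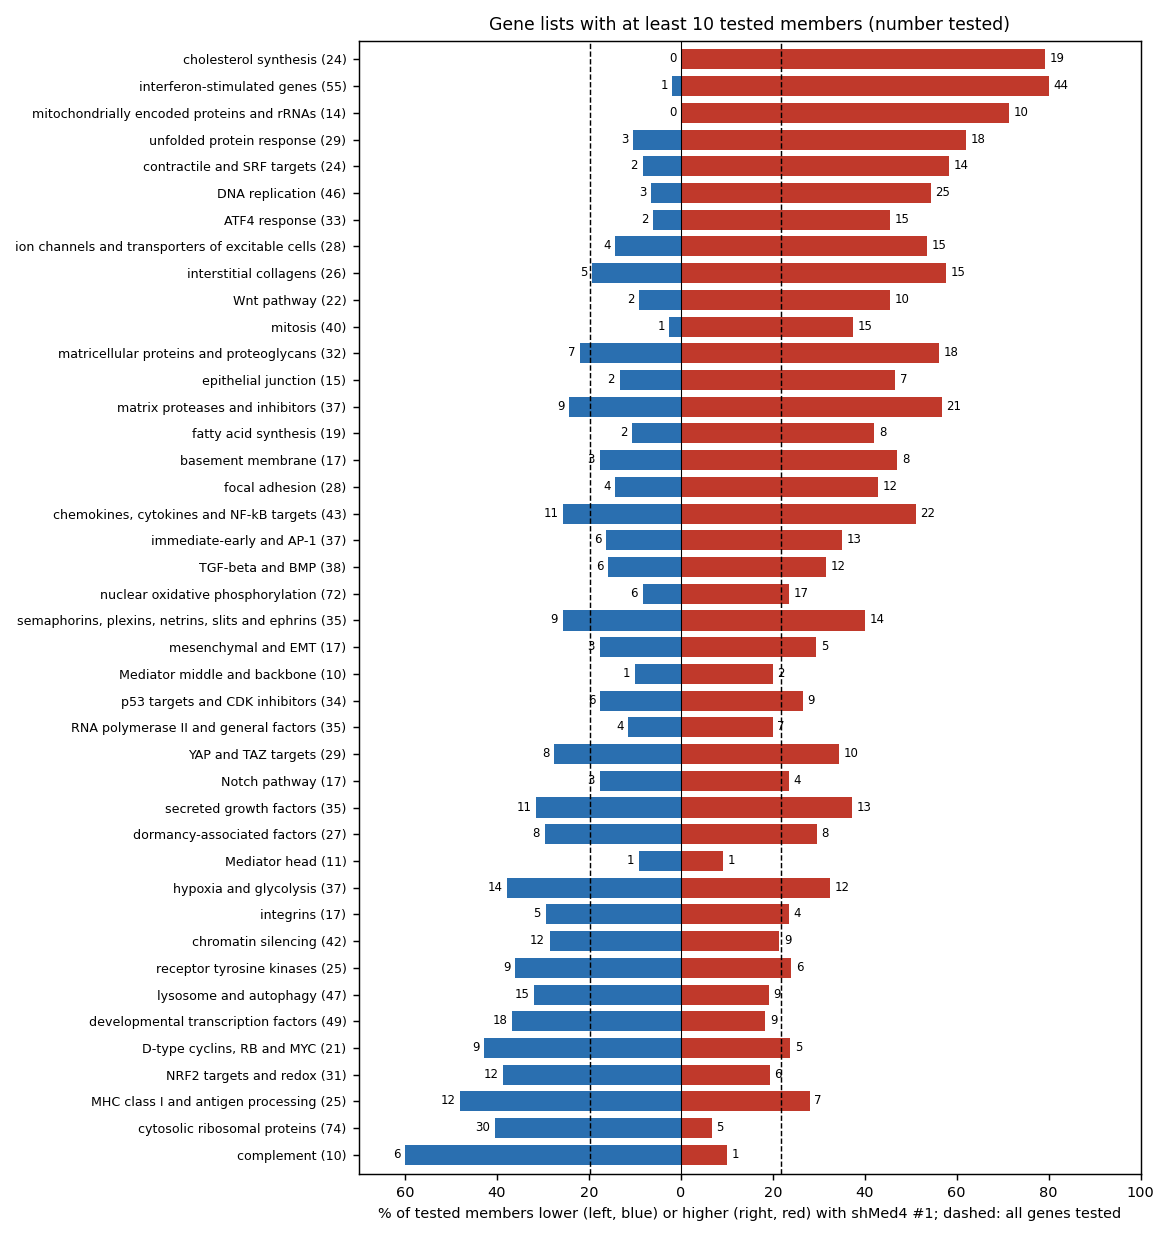
Percentage of the tested members of each gene list that were called higher (red, right) or lower (blue, left) with shMed4 #1, for lists with at least 10 tested members, whose number stands in brackets; numbers at the bars are the members called. Dashed lines mark the 21.8% and 19.8% of all genes tested, and cholesterol synthesis (19 of 24) and interferon-stimulated genes (44 of 55) have the longest bars to the right.

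Cell surface receptors changed gene by gene. Of 17 integrin chains, 4 rose and 5 fell (23.5% and 29.4%, against 21.8% and 19.8% of all genes). Itgb3, which pairs with the alpha V chain to bind vitronectin, held 7.21, 7.23 and 6.26 CPM in NTC and 46.1, 38.8 and 43.5 CPM with shMed4 #1 (log2 fold change 2.63, SE 0.11, edgeR adjusted p = 2.59e-21). Itgb1, the common beta chain, went from 985 to 1628 CPM and Itga6 from 15.1 to 29.3 CPM, while Itgb8 (-0.76) and Itga3 (-0.36) fell. Of 28 focal adhesion genes, 12 rose and 4 fell, with changes under 2-fold in the named members Tns1 (0.52), Lims1 (0.36), Nedd9 (0.55) and Tns3 (-0.40). Of 25 receptor tyrosine kinases, 6 rose and 9 fell. The FGF receptor Fgfr1 rose from 105 to 186 CPM, the ephrin receptor Ephb2 fell from 68.4, 68.6 and 63.7 CPM to 24.4, 24 and 21.3 CPM (-1.53), Pdgfra fell by 0.73, and Axl, a receptor for Gas6, went from 523 to 436 CPM.

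In signalling pathways the Wnt list leaned upward and the others were mixed. Of 22 Wnt pathway genes, 10 rose and 2 fell. The receptor Fzd6 held 5.97, 8.52 and 4.79 CPM in NTC and 35.9, 37.3 and 35.1 CPM with shMed4 #1 (2.49), and the transcription factor Tcf7 held 5.72, 8.40 and 7.73 CPM and 23.2, 24.3 and 24.5 CPM (1.72). The co-receptor Lrp5 (1.21) and Fzd4 (0.93) rose as well, Fzd7 fell (-0.63) and Ctnnb1, beta-catenin, went from 507 to 617 CPM. In the Notch pathway 4 of 17 rose and 3 fell, near the shares of all genes. The ligand Jag1 went from 28.5, 25.2 and 23.2 CPM to 66.7, 68.1 and 66.4 CPM. The target Hey1 went the other way, from 60.2, 57.6 and 62.6 CPM to 22.4, 21.9 and 24.2 CPM (-1.40), whereas the target Hes1 rose by 1.26. Of 38 TGF-beta and BMP genes, 12 rose and 6 fell (31.6% and 15.8%, against 21.8% and 19.8% of all genes). Among them were the ligand Tgfb2 (6.65 to 17.7 CPM), the receptor Acvrl1 (1.80) and the inhibitor Smad7 (-0.57). Of 35 secreted growth factors, 13 rose and 11 fell, with Ptn, pleiotrophin, up by 3.39 from a level under 1 CPM, the EGF receptor ligand Ereg up by 0.72 and Csf1, a macrophage growth factor, down from 839 to 662 CPM. Of 35 axon guidance genes, 14 rose and 9 fell. Sema3b (1.63) and the receptor Plxnd1 (0.65) rose, and Sema3c (-1.04), Ntn1 (-0.76) and Slit2 (-0.75) fell.

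Developmental transcription factors fell more often than they rose. Of 93 in the files 49 were tested, and 18 fell and 9 rose. Lhx2 held 7.59, 8.91 and 8.96 CPM in the NTC libraries and 2.61, 2.66 and 2.20 CPM with shMed4 #1, and Sox12 went from 111 to 66.4 CPM. Prrx1, Meis2 (0.587 to 4.69 CPM) and Runx3 (28.6 to 50.5 CPM) went up. Channels and transporters of excitable cells had 15 higher and 4 lower of 28 tested, with 65 in the files. Cacng2 held 6.47, 8.27 and 9.08 CPM in NTC and 80.0, 64.5 and 66.2 CPM with shMed4 #1, and its relative Cacng7 held 2.11, 2.07 and 2.45 CPM and 14.8, 14.4 and 13.7 CPM. The potassium channel Kcnh2 rose by 2.30, the inward rectifier Kcnj2 fell from 80.8 to 33.2 CPM, and the calcium pump of the endoplasmic reticulum, Atp2a2, rose from 377 to 516 CPM. The targets of YAP and TAZ, 10 of 29 up and 8 down, and the immediate-early genes, 13 of 37 up and 6 down, held changes in both directions. Examples are Ankrd1 (0.72), Crim1 (-0.63), the MAP kinase phosphatases Dusp4 (0.95) and Dusp1 (-0.61) and the AP-1 subunit Fosl2 (-0.68).

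Cholesterol synthesis was among the lists with the highest share of rises. Its enzymes are induced together when the transcription factor SREBP2 is released from the endoplasmic reticulum by low sterol. Of 24 tested genes 19 rose, none fell, and 5 were not called, with a median log2 fold change of 0.44 against -0.01 over all genes. The rises were small. Hsd17b7 held 12.1, 10.7 and 11.2 CPM in the NTC libraries and 26.5, 28.8 and 28.3 CPM with shMed4 #1 (log2 fold change 1.30, SE 0.11, edgeR adjusted p = 5.56e-12). Dhcr7 (0.83), a reductase at the end of the pathway, the epoxidase Sqle (0.51) and Srebf2 itself (0.37) had separated groups. Not called, and named after their values were seen, were Fdps, Lss, Mvk, Pmvk and Tm7sf2, at log2 fold changes of 0.50, 0.01, 0.20, 0.14 and -0.32. Among 17 genes of at least 20 CPM, 16 rose and none fell, where 25.9% of all 8199 such genes rose. Of 19 fatty acid synthesis genes 8 rose and 2 fell, and Scd2, a desaturase, held 286, 302 and 306 CPM in NTC and 592, 707 and 675 CPM with shMed4 #1 (1.14).

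The sterol element through which SREBP binds was searched by its core letters TCACNCCAC on both strands in the 250 bases before and 50 after the RefSeq start site. It was found in 1.24% of 32851 promoters and in 1 of the 17 list members with a promoter in the table. That member is Hmgcs1, which makes the first committed precursor and rose from 90.4 to 116 CPM (0.35). The element is shown in its promoter, GRCm38.p6, + strand, with the matched letters in capitals, at chr13:119690189-119690247.
Hmgcs1: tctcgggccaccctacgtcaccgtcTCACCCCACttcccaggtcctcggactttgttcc

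Genes of protein folding were more often higher than lower, with small changes. Of 29 genes of the unfolded protein response, 18 rose and 3 fell. The disulfide isomerase Pdia4 held 701, 663 and 681 CPM in the NTC libraries and 1047, 1093 and 1059 CPM with shMed4 #1 (0.65), and the cochaperones Dnajb11 (0.57) and Sdf2l1 (0.66) behaved likewise. Calr, calreticulin, was not called (4513 to 4820.1 CPM), and its neighbours had a median of -0.37. Of 33 genes of the ATF4 response, the arm that raises amino acid import and synthesis, 15 rose and 2 fell, with Slc7a5 at 0.45, Mthfd2 at 0.41 and Slc7a1 at 0.41.

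Hypoxia and glycolysis genes were split, with 12 up and 14 down of 37, or 9 down without NTC replicate 3. The glycolytic enzymes Pgk1 (835 to 561 CPM), Pfkl (195 to 123 CPM) and Pgam1 (254 to 186 CPM) fell, and so did Bnip3, a mitophagy receptor whose exons are covered to 22.3% by an antisense gene (-0.90). The carbonic anhydrase Car12 held 1.87, 2.20 and 1.72 CPM in NTC and 12.7, 12.7 and 14.6 CPM with shMed4 #1 (log2 fold change 2.78, SE 0.18, edgeR adjusted p = 1.95e-15), the opposite direction. Of 31 antioxidant and NRF2 target genes, 12 fell and 6 rose. Heme oxygenase Hmox1 held 129.8, 116 and 142 CPM and 70.9, 69.7 and 68.5 CPM (-0.89), the metallothionein Mt1 fell by 0.75 and the quinone reductase Nqo1 by 0.76. All 3 lie on chromosome 8 among lower genes (neighbour medians -0.31, -0.57 and -0.26). Gstm2, a glutathione transferase on chromosome 3, rose by 0.75. Lysosome and autophagy genes had 9 up and 15 down of 47, and 5 up without NTC replicate 1, with progranulin, Grn, going from 580.3 to 426 CPM.

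Of the 14 tested genes for mitochondrially encoded proteins and ribosomal RNAs, 10 rose and none fell. Over all 22 tested genes of the mitochondrial genome, transfer RNAs included, 15 rose and 1 fell. mt-Nd5, a subunit of respiratory complex I, held 3644, 3953 and 3750.1 CPM in the NTC libraries and 6771, 6323 and 6043 CPM with shMed4 #1 (log2 fold change 0.75, SE 0.05, edgeR adjusted p = 3.53e-15). mt-Nd2 rose by 0.64, mt-Nd4 by 0.51, mt-Nd1 by 0.40 and mt-Cytb by 0.32, whereas mt-Co1, a subunit of complex IV, was not called (0.09, edgeR adjusted p = 0.143). These rises move with the mitochondrial share of reads given above, and the part of RNA quality in both was not tested. Of 72 nuclear genes of oxidative phosphorylation, 17 rose (23.6%, near the 21.8% of all genes) and 6 fell (8.33%, against 19.8%). With NTC replicate 2 left out, 9 rose. The largest of these by p, Ndufb11 (0.63) and Ndufa4 (0.40), have neighbour medians of 0.47 and 0.33.

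Cytosolic ribosomal proteins were more often lower, with 30 of 74 down and 5 up. The 5 rises became 2 without NTC replicate 2 and 8 without NTC replicate 3. Over the alternatives the falls numbered 23 to 39, the most under upper-quartile scaling. The falls were small. Rps15 held 497, 505 and 575 CPM in NTC and 376, 404 and 367 CPM with shMed4 #1 (-0.46), and Rps4x went from 636 to 478 CPM. The median of the list was a log2 fold change of -0.11, and Rpsa was not called (-0.06). Many ribosomal protein genes have processed pseudogenes, and reads that align to several places were not counted.

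Cell cycle genes were more often higher than lower, by small amounts. Of 46 DNA replication genes, 25 rose and 3 fell. The E-type cyclins Ccne1 (27.2 to 41.3 CPM) and Ccne2 (50.5 to 76.4 CPM), the ribonucleotide reductase Rrm1 (219 to 293 CPM) and the helicase factor Cdc45 (71.8 to 93 CPM) had separated groups, and an antisense gene covers 17.4% of the exons of Ccne2. Pcna was not called (0.09). Gins3, another helicase factor, fell by 0.62, on the lower stretch of chromosome 8 (-0.54). Of 40 mitotic genes, 15 rose and 1 fell, led by Racgap1 (0.38) and the kinase Plk1 (0.45).

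Of 21 D-type cyclin, RB and MYC genes, 5 rose and 9 fell, and 3 rose without NTC replicate 2, NTC replicate 3 or shMed4 #1 replicate 3. Ccnd2, cyclin D2, held 48, 39.3 and 44.9 CPM in the NTC libraries and 14, 18.9 and 14.6 CPM with shMed4 #1 (log2 fold change -1.48, SE 0.10, edgeR adjusted p = 1.47e-14), and Ccnd1 was not called (490.2 to 474 CPM). E2f4 and Rbl2, which form a repressor of cell cycle genes in resting cells, fell by 0.72 and 0.83, and both lie on the lower stretch of chromosome 8 (neighbour medians -0.57 and -0.55). An antisense gene covers 21% of the exons of Rbl2. Of 34 p53 targets and inhibitors of cyclin-dependent kinases, 9 rose and 6 fell, near the shares of all genes. The inhibitor Cdkn1b, p27, held 220.3, 233 and 223 CPM in NTC and 170.0, 171 and 165 CPM with shMed4 #1 (-0.42), and Cdkn2a went from 55.9 to 74.3 CPM, the higher of the groups being shMed4 #1. Perp, a membrane protein of desmosomes and a p53 target, went from 2.43 to 9.38 CPM. Of 27 factors associated with tumour cell dormancy, 8 rose (5 without NTC replicate 2) and 8 fell, with Tgfb2 and Bhlhe40 (0.63) up and Thbs1, Cdkn1b and Hbp1 (-0.45) down. An antisense gene covers 24.6% of the exons of Hbp1.

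Interferon-stimulated genes showed the widest rise of the immune lists. They are the antiviral genes that interferons switch on through a response element built on repeats of GAAA. Of 65 in the files 55 were tested, and 44 rose, 23 of them at least 2-fold, while 10 were not called and 1 fell. The median log2 fold change of those tested was 0.82. Among the 26 members of at least 20 CPM over both groups, 19 rose and 1 fell.

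The members of this list with the smallest p span sensors, regulators and effectors. Ddx58, which encodes the RNA sensor RIG-I, held 35.8, 39.9 and 34.2 CPM in the NTC libraries and 84.1, 80.9 and 78.5 CPM with shMed4 #1 (log2 fold change 1.15, SE 0.07, edgeR adjusted p = 2.81e-16). Irf7, the factor that amplifies the interferon response, held 1.24, 1.68 and 1.72 CPM and 10.8, 9.56 and 9.60 CPM (log2 fold change 2.68, SE 0.22, edgeR adjusted p = 8.04e-13). All shMed4 #1 libraries were above all NTC libraries in both, which a choice by smallest p favours. Among effectors, the membrane protein Ifitm3 held 53.7, 53.3 and 59.8 CPM and 171, 190.4 and 167 CPM (1.66). Oasl2, of the oligoadenylate synthetase family, held 3.86, 5.04 and 5.52 CPM and 29.6, 23.4 and 22.4 CPM (2.38), and the RNA-activated kinase Eif2ak2, PKR, held 28.9, 36.8 and 35 CPM and 79.8, 67.3 and 68.3 CPM (1.10). These groups were separated too, which the same choice favours. Ifit2, named after its value was seen as the 1 member that fell, held 36.8, 39.5 and 35.7 CPM in NTC and 29.1, 24.3 and 27.9 CPM with shMed4 #1 (log2 fold change -0.46, SE 0.09, edgeR adjusted p = 6.66e-05). Oligoadenylate synthetases, Gbp and Ifit genes lie in clusters of related copies, so single counts are less certain than the list. Interferon genes themselves were close to undetected: 21 interferon ligand genes, a set taken after the list was seen, together had 23 reads over NTC and 24 over shMed4 #1, with Ifnb1 at 0 and 6.

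**Figure D4:**
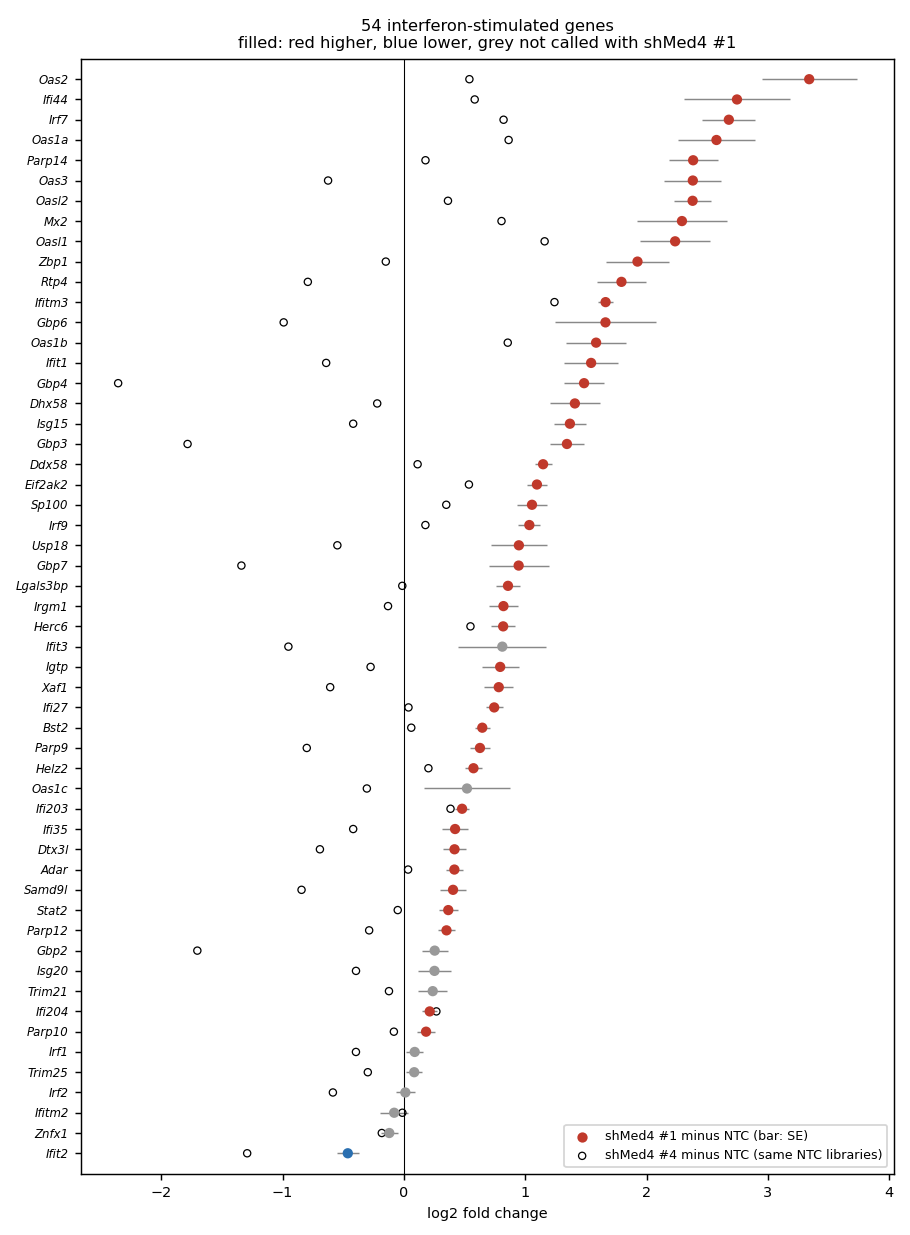
Log2 fold change of 54 of the 55 tested interferon-stimulated genes (horizontal axis) with shMed4 #1 against NTC (filled, with SE; red higher, blue lower, grey not called) and with shMed4 #4 against the same NTC libraries (open circles). With shMed4 #1, 43 of the 54 genes are called higher and Ifit2 alone is called lower, and most open circles lie to the left of the filled ones.

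The response element core GAAANNGAAA, searched on both strands in RefSeq promoters (GRCm38.p6, 250 bases before to 50 after the start site), was in 3.44% of 32851 promoters and in 3.63% of the 9870 tested genes with one. Of the 40 list members with a promoter in the table, 20 held it, of which 14 were among the 29 that rose and 6 among the 10 not called. These are 48.3% of the members that rose and 60% of those not called. The examples below, picked to show the element after values were seen, are 60-base stretches before the start site with 1 matched core in capitals. Where the core reads from TTTC it lies on the other strand. Cores overlap in Isg15 and Bst2, and Ifit1 holds a further core in lower case. Isg15 (- strand, chr4:156200856-156200915), a ubiquitin-like protein, went from 10.4 to 26.9 CPM. Ifit1 (+ strand, chr19:34640760-34640819) went from 2.87 to 8.47 CPM, Oas3 (- strand, chr5:120777700-120777759) from 1.58 to 8.34 CPM and the virion-tethering protein Bst2 (- strand, chr8:71537568-71537627) from 78.3 to 123 CPM. Gbp2 (+ strand, chr3:142620579-142620638) holds the core and was not called (21.1 to 25.2 CPM, edgeR adjusted p = 0.0516).
Isg15: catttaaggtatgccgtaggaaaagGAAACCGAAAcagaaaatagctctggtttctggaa
Ifit1: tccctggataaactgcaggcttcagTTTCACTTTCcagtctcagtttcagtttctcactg
Oas3: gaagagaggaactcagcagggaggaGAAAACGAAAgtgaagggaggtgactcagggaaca
Bst2: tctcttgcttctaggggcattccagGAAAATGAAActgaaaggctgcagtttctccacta
Gbp2: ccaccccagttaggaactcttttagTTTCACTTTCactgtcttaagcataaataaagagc

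The second hairpin was set against the first directly, with no use of the NTC libraries in the difference. Of all genes tested 13.9% were lower with shMed4 #4 than with shMed4 #1 and 14.2% were higher. Of the 55 interferon-stimulated genes, 50 were lower with shMed4 #4 than with shMed4 #1 and none was higher. Irf7 stood at 2.74 ± 0.286 CPM and Ddx58 at 39.6 ± 1.02 CPM with shMed4 #4 (SD, n = 3), against the levels given above (log2 difference -1.86, SE 0.19, edgeR adjusted p = 9.12e-10 and log2 difference -1.03, SE 0.07, edgeR adjusted p = 1.14e-14). Which feature of the hairpins goes with this difference was not tested.

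Antigen presentation did not follow the interferon list. Of 25 tested genes of MHC class I and antigen processing, 7 rose (28%) and 12 fell (48%), against 21.8% and 19.8% of all genes. With DESeq2, or without NTC replicate 3 or shMed4 #1 replicate 1, 7 rose and 8 fell. The light chain B2m held 958, 959.8 and 1072 CPM in the NTC libraries and 864, 867 and 762 CPM with shMed4 #1 (-0.26), and the heavy chain H2-D1 held 455, 449.6 and 471 CPM and 301, 365 and 331 CPM (-0.47). Nlrc5, the transactivator of class I genes, held 45.5, 46.2 and 43.8 CPM and 16.8, 15 and 17 CPM (log2 fold change -1.47, SE 0.09, edgeR adjusted p = 2.97e-16), on the lower stretch of chromosome 8 (-0.57). Against these falls, the immunoproteasome subunit Psmb8 rose from 1.92 to 10.5 CPM, the proteasome activator Psme1 from 50.3 to 84.8 CPM and the nonclassical H2-T24 from 2.64 to 8.23 CPM. H2 genes are close paralogs and their counts are uncertain one by one.

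Inflammatory genes were mixed. Of 60 chemokine, cytokine and NF-kB target genes 43 were tested, with 22 higher and 11 lower. The acute-phase protein Saa3 held 19.8, 17.7 and 21.8 CPM in NTC and 47.2, 54 and 49.1 CPM with shMed4 #1, the adhesion molecule Vcam1 went from 41.1 to 77.7 CPM, the chemokine Cxcl1 from 107 to 179 CPM and the NF-kB feedback gene Birc3 from 2.21 to 8.56 CPM, all higher. Lcn2, the iron-binding lipocalin, held 519, 567 and 579.9 CPM in NTC and 262, 348 and 288 CPM with shMed4 #1 (-0.89). Complement genes were mostly lower, with 6 of 10 down and Clu alone up (0.62). The proteases Masp1 (149 to 93.1 CPM) and C1s1 (414 to 289.6 CPM) and the central component C3 (804 to 629.5 CPM) were among the falls.

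Chromatin silencing factors stayed near the share of all genes, with 9 of 42 higher and 12 lower. Pcgf5, a Polycomb subunit, fell from 47.7 to 27.2 CPM, Ezh1 (-0.40) and Jarid2 (-0.54) fell by less, and the methyltransferase Suv39h1 rose by 0.63 on the higher stretch of the X chromosome (neighbour median 0.45). Among long noncoding RNAs the largest falls were in 4930599N23Rik (-1.68), Gm14488 (-1.63) and Lncpint (-1.46), and the largest rises in 9430018G01Rik (2.01), Gm11149 (1.94) and Gm15640 (1.52). An antisense gene covers 32.6% of the exons of 4930599N23Rik, and the strand setting of the counts is not known.

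Calls were unevenly spread over chromosomes. On chromosome 15, 46.6% of 581 tested genes rose and 8.43% fell, and on chromosome 6, 35.9% rose. On chromosome 8, 37.0% of 828 fell, and on chromosome 2, 36.3% of 1109. Most of the chromosome 8 falls lay in 1 stretch, from 75093621 to 107187471 on GRCm38, where 214 of 284 tested genes fell and 15 rose, with a median log2 fold change of -0.46. On the X chromosome, between 6399854 and 56793346, 96 of 129 tested genes rose and 2 fell, with a median of 0.47. Smaller runs of higher genes lay on chromosomes 6, 9, 15 and 19, with 21 to 36 tested genes each. A copy number difference between the groups was not tested here.

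**Figure D5:**
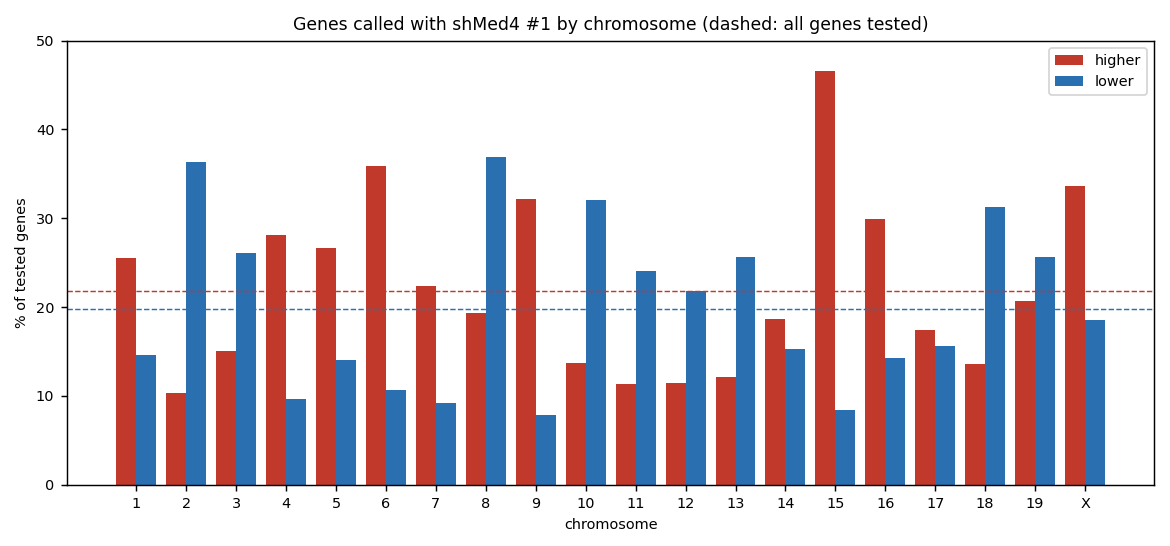
Percentage of the tested genes of chromosomes 1 to 19 and X (horizontal axis) called higher (red) or lower (blue) with shMed4 #1, with dashed lines at the 21.8% and 19.8% of all genes tested. Of the chromosomes drawn, chromosome 15 has the tallest red bar (46.6%), and chromosomes 8 and 2 have the tallest blue bars (37.0% and 36.3%).

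Among genes called with shMed4 #1, those that differed most from the second hairpin by p were the rises of Vcan, Saa3, Igfbp7 and Gbp9 and the falls of Col4a2, Prune2, Col4a1 and Ntn1. Igfbp7, a secreted binder of insulin-like growth factors, held 5.97, 7.23 and 6.14 CPM in NTC and 22, 23.4 and 19.9 CPM with shMed4 #1 (1.75), and Gbp9, a guanylate-binding GTPase, held 12.2, 13 and 10.8 CPM and 23.5, 20.7 and 17.8 CPM (0.78). Both hairpins are set against the same NTC libraries, and with shMed4 #4 these genes stood at 1.14 ± 0.488 CPM and 1.68 ± 0.0566 CPM (SD, n = 3). The falls went further with shMed4 #4, with a log2 difference to shMed4 #1 of -1.20 in Col4a1, -1.40 in Col4a2, -2.57 in Prune2 and -1.49 in Ntn1, all past the threshold. Prune2 itself went from 90.1 to 47.7 CPM with shMed4 #1. Med4 itself stood at 7.21 ± 0.982 CPM with the second hairpin, above its level with the first (log2 difference 0.67, SE 0.18, edgeR adjusted p = 0.00401).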

How the data were processed

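RNA of 9 D2A1-d libraries was read on the BGISEQ-500 platform (labels). STAR and HTSeq with mm10 (GRCm38) are named in the submitters' processing notes. Their versions, the annotation and whether strand was used: not given in the sources used here. The authors deposited raw counts of reads for every gene, 1 file a library. The last 5 lines of each file name no gene and were left out. They held 49.9 to 51.6% of records as reads in no gene, 10.5 to 11.6% as multiple alignments and 0.863 to 0.946% as ambiguous reads. Of 55335 identifiers, 55154 matched GENCODE M21 on GRCm38, which gave coordinates and overlaps.

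All 9 libraries were fitted in edgeR 4.0.16 (R 4.3.3) with TMM scaling, filterByExpr at a minimum count of 10 and a quasi-likelihood model of the 3 groups. Contrasts were shMed4 #1 minus NTC, shMed4 #4 minus NTC and shMed4 #4 minus shMed4 #1, each with Benjamini-Hochberg adjustment over 14335 genes. The SE is the log2 fold change over the square root of F. Levels are CPM from TMM-scaled library sizes, and SDs are over the 3 libraries of a group. Libraries of a group differed beyond sampling noise (chi-square over its degrees of freedom, 1.62 to 3.13). Each was counted as its own replicate, which this check cannot establish, since the spread may be technical. Depth sets counting error only. The steps were tested on simulated counts.

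The genes and the 49 lists were chosen with earlier results of these data known. Lists held 1590 genes, of which 1281 were tested, and are described by counts only. The rule for named genes took, among called genes of at least 5 CPM with groups that do not overlap and no clone name, the 15 largest rises and falls, the 6 smallest p and the 6 largest CPM differences each way, the 3 largest long noncoding changes each way, and the 4 genes each way that differ most from shMed4 #4. Each list added the 5 members with the smallest p and the one with the highest CPM, and small lists in full. Ifit2, Isg15, Ifit1, Oas3, Bst2, Gbp2, Hmgcs1 and marker genes given by reads were added after their values were seen. Some list members are not reported here individually. Alternatives were DESeq2 1.42.0, limma-voom (limma 3.58.1), other scalings, filters, thresholds, fits of the 6 libraries, a replicate block and leaving out each library.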

Additional observations from a re-analysis of the deposited data

Results flagged for a closer look

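Of the genes named, 7 were called in opposite directions by the hairpins against the same NTC libraries, and the hairpins differed in the direct test. The values below are log2 differences of shMed4 #4 minus shMed4 #1, all past an edgeR adjusted p of 0.05, beside each hairpin's own log2 fold change. Perp differed by -5.41, being higher with shMed4 #1 (1.94) and lower with shMed4 #4 (-3.47). Igfbp7 differed by -4.23 (1.75 and -2.47), Gbp9 by -3.61 (0.78 and -2.83) and Vcan by -3.55 (1.45 and -2.10). Saa3 differed by -2.12 (1.34 and -0.79), Isg15 by -1.79 (1.37 and -0.42) and Polr2a by -0.52 (0.23 and -0.29). What sets the hairpins apart in these genes was not tested.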

How the results depend on the processing

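Counts of genes called with shMed4 #1 stayed within 1.5 times under 17 alternatives. The upper-quartile scaling turned the balance to 2767 higher and 3240 lower, with a shift of -0.03 in the median log2 fold change. DESeq2 called 2642 higher and 2234 lower, and an adjusted p under 0.01 called 2392 and 1996. At that threshold the genes that differ between shMed4 #4 and shMed4 #1 numbered 2573 instead of 4017. Leaving out each library in turn gave 2705 to 2980 higher and 2421 to 2620 lower. Same-numbered libraries correlated in their deviations at -0.0206 to 0.0352, and differently numbered ones at -0.0747 to 0.0494. These values showed no pairing by replicate number, though they cannot exclude one. With a replicate block 3060 genes were higher and 2768 lower. In the 6 libraries alone the block gave 3166 higher and 2954 lower, against 3031 and 2801 without it. Of 264 named genes called, 256 kept the call in each alternative that tested them and none reversed. Med21, Med13, Med12, Med12l, Gata3, Fn1, Flna and Cd79a lost it in at least 1. Without the mitochondrial genes 3120 genes were higher and 2834 lower. Between 1 and 5 CPM 797 of 2839 genes were called, against 1340 of 2395 at 100 CPM or more and 71 of 158 under 1 CPM. The last share is in part set by the filter.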
